A study of Mus musculus with 12 samples.

Results

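The genes described here are those encoded in mitochondrial DNA, the small circular genome that mitochondria carry apart from the nucleus. They were chosen as every gene that the mouse annotation GENCODE M21 places on the mitochondrial chromosome: 13 protein-coding genes, 2 ribosomal RNA genes and 22 transfer RNA genes, 37 of the 55487 genes in the count table. RNA was measured in whole retina of 4 groups of mice with 3 libraries each, 12 in all. The groups were wild-type (WT) mice of strain C57BL/6J at 1 month (1M) and at 6 months (6M), and 5xFAD mice, strain label Tg6799, at the same ages. The 5xFAD line carries human amyloid precursor protein and presenilin 1 transgenes with familial Alzheimer's disease mutations, and both transgenes are driven by the Thy1 promoter, which is active in neurons. The labels do not give the background strain of the 5xFAD mice, the maternal line from which they inherited their mitochondrial DNA, or the number of mice behind a library, so p-values here measure only the spread between these libraries, which may be technical. The libraries held 10928031 to 19552537 expected counts, which are reads or shares of reads assigned to genes. Polyadenylated RNA was selected with oligo-dT beads and sequenced without marking the strand, per the labels' protocol.

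Mitochondrial DNA encodes a small set of subunits of the respiratory chain and ATP synthase, together with the ribosomal and transfer RNAs needed to translate them inside the organelle. The other subunits of the same complexes are encoded in the nucleus and imported. Both strands of the circle are transcribed as long precursors, transfer RNAs mark most cut points between neighbouring genes, and most of the mature messenger RNAs receive short poly(A) tails. In the retina, photoreceptor inner segments are packed with mitochondria. In these data 12 of the 13 protein-coding genes lay on the plus strand of the reference. The exception, mt-Nd6, lay on the minus strand together with 8 of the transfer RNA genes.

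Each gene's reads were counted together with those of its nuclear copies. At 1 month, 12 of the 13 mitochondrial messenger RNAs and both ribosomal RNAs were called lower in 5xFAD than in WT retina. The same test called 8.93% of all genes lower. The calls of both ribosomal RNAs, mt-Nd6 and mt-Nd2 were lost when a trend with transcript length and GC content was removed. The 13 messenger RNAs and their copies made up 4.20% ± 0.131 (SD, n = 3) of all counts in 5xFAD at 1 month and 6.85% to 7.04% on average in the other groups. At 6 months mt-Nd6 and mt-Rnr2 were called higher in 5xFAD, and no messenger RNA was called lower. Of all genes, 2.45% were called higher and 3.86% lower. The call of mt-Nd6 was lost when some single libraries of that age were left out. The call of mt-Rnr2 was kept in each alternative run. Counted without the copies, mt-Co3, mt-Co2 and mt-Atp6 gave another picture at 6 months, the age at which the WT libraries stood apart in how reads were split between gene and copy.

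Stretches of mitochondrial DNA that were inserted into the nuclear genome are annotated as genes of their own. By alignment to the 37 mitochondrial transcripts, 17 annotated nuclear genes matched over at least 100 bases at 90% identity or more. Of these, 7 stood next to each other on the minus strand of chromosome 1 in one block of 4663 bases, chr1:24611535-24616197 (GRCm38), in the mitochondrial gene order from mt-Co1 to mt-Nd4. Over the aligned part, 5 of the 7 were identical to the mitochondrial gene, and 5 covered more than 95% of its length. Gm28437 (ENSMUSG00000101111) matched 783 of the 784 bases of mt-Co3 (ENSMUSG00000064358), Gm10925 matched 678 of 681 bases of mt-Atp6 and Gm28661 matched 681 of 684 bases of mt-Co2. Gm10222 matched 294 of 297 bases of mt-Nd4l. Gm28438 aligned to 345 of 348 bases of mt-Nd3 with 1 mismatch, T3C. Gm28439 matched 876 of the 1378 bases of mt-Nd4, and Gm29216 aligned to 483 of the 1545 bases of mt-Co1 with 1 mismatch, A1066T. In these tokens the mitochondrial base comes first, and positions count from 1 at the 5′ end of the mitochondrial transcript. The 3′ ends of the pairs mt-Co3, mt-Atp6 and mt-Co2 are shown because they hold the few bases by which the annotated transcripts of a pair differ. The 5′ end of the pair mt-Nd3 is shown because it holds the mismatch. The bases of mt-Nd3 past position 345, which Gm28438 lacks, are not shown. The stretches come from the GENCODE M21 transcripts. Capitals mark the bases past the end of the copy's annotated transcript in the first 3 pairs, and the mismatched base in the last.
mt-Co3: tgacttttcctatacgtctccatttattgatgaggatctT
Gm28437: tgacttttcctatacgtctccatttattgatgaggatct
mt-Atp6: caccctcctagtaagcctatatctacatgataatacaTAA
Gm10925: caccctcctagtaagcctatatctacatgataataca
mt-Co2: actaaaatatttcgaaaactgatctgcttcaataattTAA
Gm28661: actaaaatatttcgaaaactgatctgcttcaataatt
mt-Nd3: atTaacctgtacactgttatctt
Gm28438: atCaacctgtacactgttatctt
A read inside the shared part of an identical pair carries no base that tells gene from copy. The other 10 copies were 90.7% to 97.6% identical and none exceeded 4.85 CPM (counts per 1000000 counts of a library) in any library. The protein-coding genes mt-Nd1, mt-Nd2, mt-Nd5, mt-Nd6, mt-Cytb and mt-Atp8 had no annotated near-identical copy. Nuclear sequence outside annotated genes was not searched. mt-Atp8 lies between mt-Co2 and mt-Atp6 on mitochondrial DNA, and none of the 17 matches lies between the copies of those genes in the block.

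The share of a pair's counts assigned to the mitochondrial gene set the 3 WT libraries at 6 months apart from the other 9. For mt-Co3, which encodes a core subunit of cytochrome c oxidase (complex IV), that share was 95.4% to 96.6% in WT at 6 months and 7.48% to 13.3% in the other 9 libraries. The same shares were 59.2% to 63.3% against 4.32% to 13.3% for mt-Co2, another core subunit of complex IV, and 42.6% to 54.4% against 3.55% to 9.11% for mt-Atp6, a subunit of the proton channel of ATP synthase (complex V). For these 3 pairs no library of one set reached the range of the other. Going the opposite way, mt-Co1 held 86.3% to 89.4% of its pair's counts in WT at 6 months and 90.8% to 93.9% elsewhere. The share of mt-Nd4 was high in all libraries, at 99.7% to 99.8% in WT at 6 months and 98.7% to 99.3% in the other 9, without overlap. The shares of mt-Nd4l and mt-Nd3 ranged widely among libraries of every kind, from 21.1% to 68.7% and from 18.6% to 67.0%, and WT at 6 months lay within those ranges. The widest 95% Wilson interval of such a share reached 1.35 percentage points to either side, which covers counting error only. The cause of the different split in WT at 6 months was not tested.

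**Figure D1:**
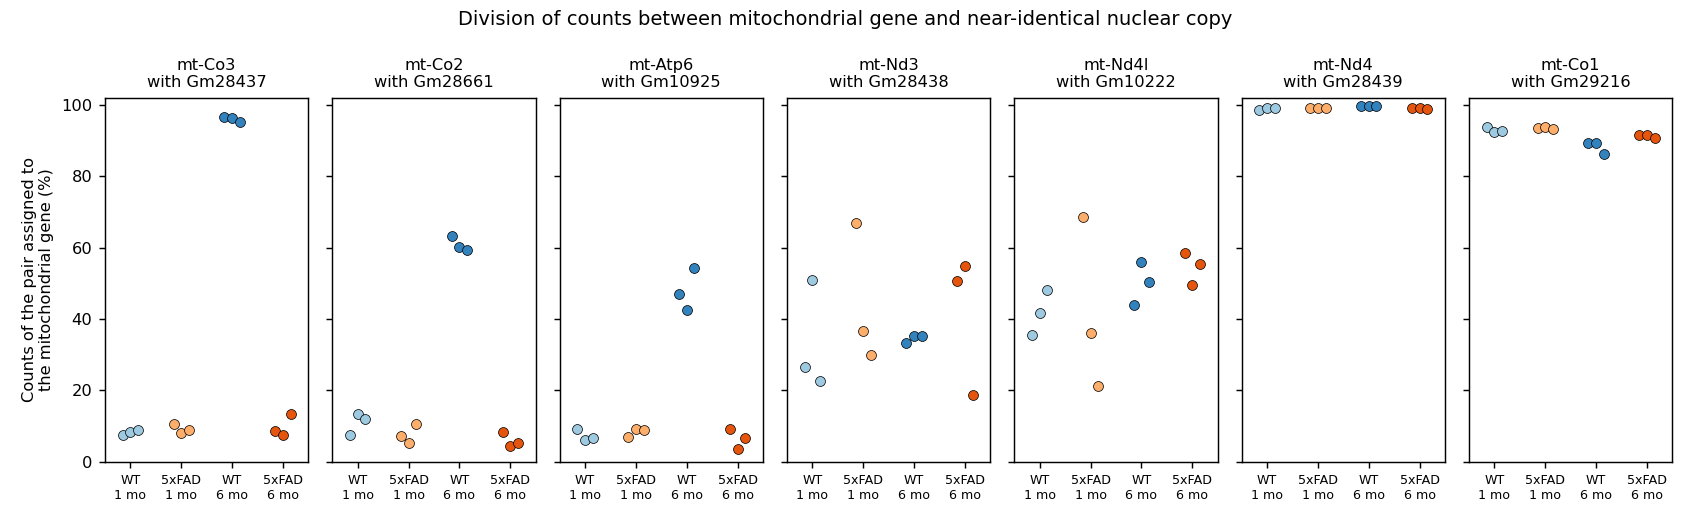
Percent of the counts of each gene and nuclear copy pair that were assigned to the mitochondrial gene, 1 point per library, for the 7 pairs on chromosome 1, by group. The 3 WT libraries at 6 months lie at 95.4% to 96.6% for mt-Co3, where the other 9 lie at 7.48% to 13.3%, and they also stand apart for mt-Co2 and mt-Atp6.

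Gene and copy moved in opposite directions in those libraries, and their sum did not follow either. For mt-Co3 alone, the level was 645 ± 105 CPM in 1-month WT, 401 ± 73.8 in 1-month 5xFAD, 6588 ± 727 in 6-month WT and 829 ± 255 in 6-month 5xFAD (mean ± SD, n = 3 each). Its copy Gm28437 was at 7191 ± 1254, 3907 ± 155, 268 ± 81.0 and 7622 ± 384 CPM in the same order. Added together, mt-Co3 and its copies were at 7650, 9266 and 6589.7 CPM in the WT libraries at 1 month, at 4569, 4171 and 4183 in 1-month 5xFAD, at 6335, 6447 and 7787 in 6-month WT, and at 8755, 8259 and 8341 in 6-month 5xFAD. The sum was lowest in 1-month 5xFAD in every library, and it did not set 6-month WT apart from 1-month WT. Because a sum does not depend on how reads were divided within a pair, the comparisons that follow give each gene with its copies added unless "alone" is said.

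In a test of the genes alone, 5xFAD at 6 months was called lower than WT for 3 messenger RNAs: mt-Co3 by a log2 fold change of -2.99 ± 0.24 (SE; adjusted p = 0.000189), mt-Atp6 by -2.98 ± 0.37 (adjusted p = 0.00348) and mt-Co2 by -3.35 ± 0.42 (adjusted p = 0.00361), each from edgeR's quasi-likelihood test with Benjamini-Hochberg adjustment over 16233 genes. The same test called 6.38% of all genes in that comparison, 2.48% as higher and 3.89% as lower. The copies of these 3 genes went the other way: Gm28437 was higher in 5xFAD by 4.83 ± 0.21, Gm28661 by 1.27 ± 0.11 and Gm10925 by 0.78 ± 0.11. Of the other 4 copies in the block, Gm28439 was higher by 1.82 ± 0.21, and Gm28438 (0.29 ± 0.35), Gm10222 (-0.07 ± 0.30) and Gm29216 (-0.33 ± 0.17) were not called. With the copies added, the difference was 0.30 ± 0.10 for mt-Co3 (adjusted p = 0.0770), 0.01 ± 0.11 for mt-Co2 and -0.08 ± 0.11 for mt-Atp6, and none of the 3 was called. The age comparison in WT, which uses the same 3 WT libraries at 6 months, called the same 3 genes alone higher, by 3.35, 2.44 and 2.86, and with copies added called none of them. Of all genes, that comparison called 10.5%, 6.01% as higher and 4.49% as lower. At 1 month 7 of the 13 messenger RNAs alone were called lower in 5xFAD, and with copies added 12 were. The genes that gained the call were mt-Co2, mt-Atp6, mt-Co3, mt-Nd3 and mt-Nd4l, whose pairs had been divided between 2 entries.

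Together, the 37 mitochondrial genes and their copies took up 6.95%, 8.45% and 6.09% of the counts in the WT libraries at 1 month and 4.46%, 4.20% and 4.30% in those of 5xFAD at 1 month. At 6 months they took up 6.55%, 6.66% and 7.78% in WT and 7.25%, 7.28% and 7.48% in 5xFAD. The 5xFAD libraries at 1 month were the 3 lowest of the 12. At 1 month 5xFAD was lower by 2.85 percentage points without overlap (two-sided exact permutation test, p = 0.1, the smallest that 3 against 3 libraries allow). At 6 months 5xFAD was higher by 0.338 points and the groups overlapped (exact permutation test, p = 0.4). Counted without the copies, the mitochondrial share at 6 months was instead 0.988 points lower in 5xFAD than in WT, without overlap (exact permutation test, p = 0.1). In bulk tissue, fewer cells rich in mitochondria and less mitochondrial RNA per cell cannot be told apart.

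**Figure D2:**
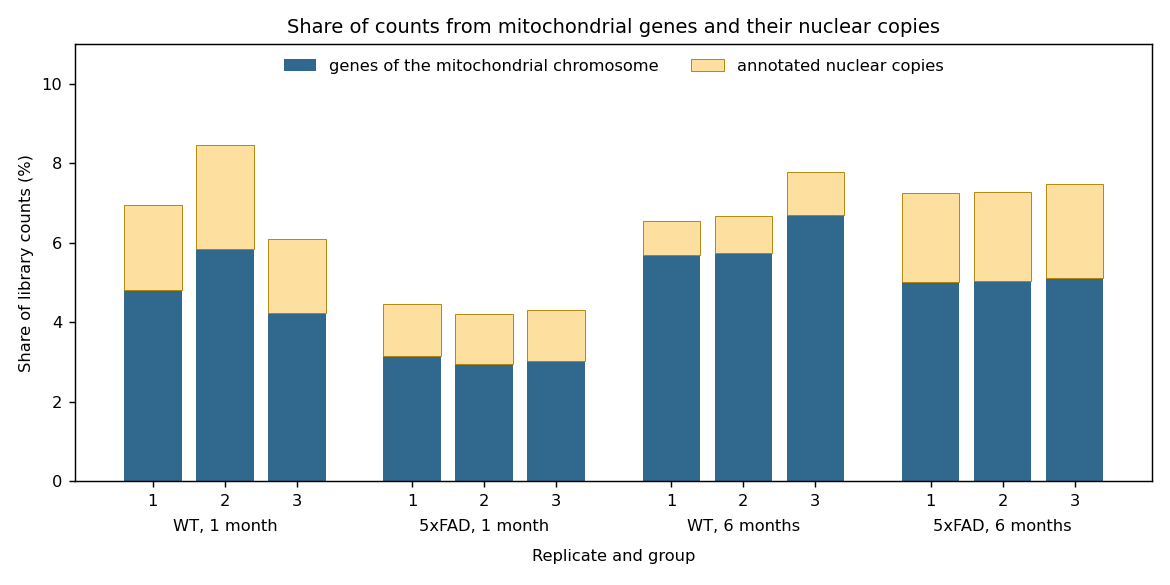
Percent of each library's counts assigned to the 37 mitochondrial genes and to their nuclear copies, stacked, 1 bar per library. The 3 libraries of 5xFAD at 1 month reach 4.20% to 4.46% in total, below the 6.09% of the lowest of the other 9, and the copies' part is smallest in WT at 6 months.

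Levels differed widely between the messenger RNAs. Per kilobase of annotated transcript, on the CPM scale and with copies added, mt-Co1 stood first at 10302 ± 2328 CPM per kb (mean ± SD over 12 libraries). It encodes the catalytic subunit of complex IV. It was followed by mt-Co2 (9116 ± 2084), mt-Atp6 (9056 ± 2138), mt-Co3 (8754 ± 2281) and mt-Cytb (7107 ± 1706), the last of which encodes cytochrome b, the one mitochondrially encoded subunit of complex III. The means of the neighbours mt-Co2, mt-Atp6 and mt-Co3 differed by less than their SD over the 12 libraries, which includes differences between groups. Within groups, mt-Co2 was above mt-Co3 in every 6-month WT library (10079 ± 1120 against 8746 ± 1030). In every 6-month 5xFAD library mt-Co2 was below mt-Co3 (10145 ± 313 against 10780 ± 339). The messenger RNAs of complex I, the NADH dehydrogenase that feeds electrons into the chain, came lower: mt-Nd1 at 4990.1 ± 1157, mt-Nd4 at 3848 ± 794, mt-Nd2 at 2944 ± 600.2 and mt-Nd3 at 2477 ± 689. The last 2 of that strand, mt-Nd4l (2134 ± 412) and mt-Nd5 (2117 ± 405), had means closer than their SD over the 12 libraries. mt-Atp8, an accessory subunit of the ATP synthase channel, lay between mt-Nd1 and mt-Nd4 over all libraries at 4272 ± 920.1. Within groups that order varied: mt-Atp8 was above mt-Nd1 in 5xFAD at 1 month (3606 ± 126 against 3358 ± 126) and below mt-Nd4 in 5xFAD at 6 months (4056 ± 740.0 against 4284 ± 242). mt-Nd6, the single messenger RNA of the minus strand, stood at 49.5 ± 29.0, below every other messenger RNA and below both ribosomal RNAs. Because oligo-dT beads capture RNA by its poly(A) tail, differences in level between genes may also reflect capture, which was not measured. The same limit holds for the counts of ribosomal RNA relative to messenger RNA given below.

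**Figure D3:**
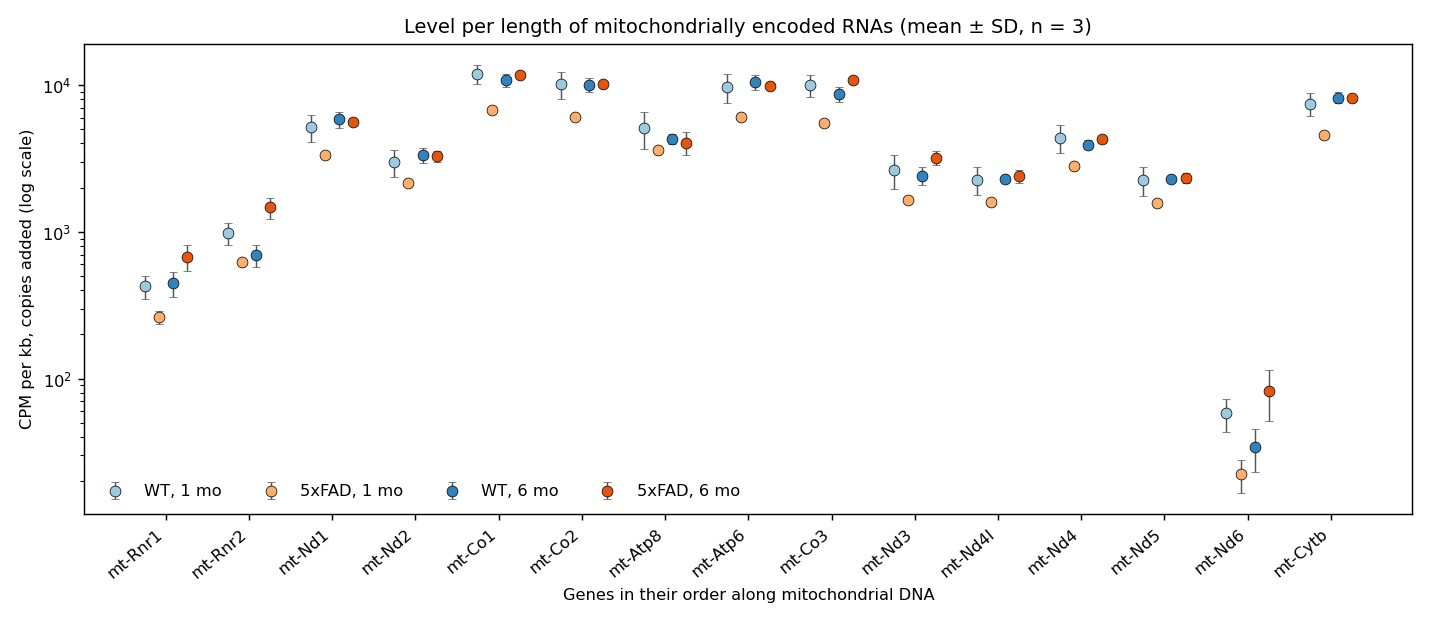
Level of each of the 15 measured mitochondrial genes in CPM per kilobase, copies added, on a log axis, in gene order along the mitochondrial DNA, as mean ± SD over the 3 libraries of each group. The complex IV, mt-Atp6 and mt-Cytb messenger RNAs lie highest, mt-Nd6 lies lowest at 49.5 CPM per kb over all libraries, and 5xFAD at 1 month is the lowest group for most genes.

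Some of these genes share bases, which limits how exactly their counts can be separated. mt-Atp8 (chrM:7766-7969) and mt-Atp6 (chrM:7927-8607) overlap by 43 bases, in which capitals mark the start codon of mt-Atp6 and the stop codon of mt-Atp8.
overlap: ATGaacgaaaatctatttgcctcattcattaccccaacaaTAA
The transcripts of mt-Nd4l (chrM:9877-10173) and mt-Nd4 (chrM:10167-11544) share 7 bases, and those of mt-Atp6 and mt-Co3 (chrM:8607-9390) share 1. Reads from the precursor of the plus strand that cross mt-Nd6 (chrM:13552-14070, minus strand) cannot be told from reads of mt-Nd6 in libraries that do not mark the strand. The values of mt-Nd6 are therefore sums of what lay on both strands.

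At 1 month the comparison of genotypes asked what differed in young retina. The test with copies added covered 16224 genes and called 19.6% of them, 8.93% as lower in 5xFAD. Of the 13 messenger RNAs, 12 were called lower and none higher. For all 13 the 3 libraries of 5xFAD lay below the 3 of WT. The share of all genes that lay apart in this way is not given here, so that count has no background. Their median log2 fold change was -0.69, beside -0.04 over all genes tested. Where a count of members is given here and for the other comparisons, "called" means a Benjamini-Hochberg adjusted p under 0.05 in edgeR's quasi-likelihood test over all genes.

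Among the subunits of complex IV, mt-Co1 (chrM:5328-6872) was at 18168, 21148 and 15766.5 CPM in WT at 1 month and at 10949, 10241 and 10342 CPM in 5xFAD. Every 5xFAD library was far below the lowest WT library. The log2 fold change was -0.80 ± 0.09 (SE; adjusted p = 4.80e-06), a level 1.75-fold lower. mt-Co3, whose values per library are given above, was lower by -0.86 ± 0.10 on the same scale (adjusted p = 5.98e-06). mt-Co2 (chrM:7013-7696) was at 6493, 8511 and 5816 CPM in WT and at 4265, 4010.5 and 4225 in 5xFAD, a change of -0.74 ± 0.11 (adjusted p = 4.85e-05). The 3 genes thus ranged between -0.74 and -0.86, and their 5xFAD libraries lay close together while the WT libraries were spread, with replicate 2 highest in each case.

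For complex III, mt-Cytb (chrM:14145-15288) was at 8270.4, 10206 and 7189 CPM in WT and at 5508, 5073 and 5017 in 5xFAD at 1 month. The groups did not overlap, and the log2 fold change was -0.72 ± 0.10 (adjusted p = 2.68e-05). For complex V, mt-Atp6 was at 6216, 8322 and 5434 CPM in WT and at 4354, 3965 and 4069 in 5xFAD, a change of -0.69 ± 0.12 (adjusted p = 0.000347). mt-Atp8, its neighbour with the shared bases, was at 996, 1367 and 781 CPM in WT and at 709, 739 and 759.8 in 5xFAD. Its lowest WT library stood just above the highest 5xFAD library, and its change of -0.51 ± 0.17 was not called (adjusted p = 0.0567). Without WT replicate 3 at 1 month it was called (-0.66, adjusted p = 0.00206), as it was without 5xFAD replicate 3 at 6 months (adjusted p = 0.0349), with library size alone (0.0316), with a filter of 1 count (0.000124) and with the trend in length and GC content removed (0.0106).

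All 7 subunits of complex I were called lower in 5xFAD at 1 month. mt-Nd4 was at 5685, 7507 and 4949 CPM in WT and at 3908, 3703 and 3922 in 5xFAD, a change of -0.65 ± 0.11 (adjusted p = 0.000177). mt-Nd1 (chrM:2751-3707), the first messenger RNA after the ribosomal RNAs, was at 4653, 6076 and 4115 CPM in WT and at 3352, 3143 and 3145 in 5xFAD, a change of -0.62 ± 0.11. These 2 genes did not overlap between groups, and WT replicate 2 was again the highest library. mt-Nd3 (chrM:9459-9806) changed by -0.69 ± 0.15, mt-Nd5 (chrM:11742-13565) by -0.52 ± 0.11, mt-Nd4l by -0.51 ± 0.11 and mt-Nd2 (chrM:3914-4951) by -0.47 ± 0.11, with adjusted p-values from edgeR between 0.00217 and 0.00532. mt-Nd2 was not called without WT replicate 2 (-0.28, adjusted p = 0.0696). The change of mt-Nd6 was -1.39 ± 0.31 (adjusted p = 0.00538), from 28.6, 38.7 and 23.5 CPM in WT to 9.20, 14.8 and 10.8 in 5xFAD. Its fold difference of 2.61 exceeded the 1.82 of mt-Co3, but its level was below 1% of that of its neighbour mt-Nd5 in all 6 libraries.

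**Figure D4:**
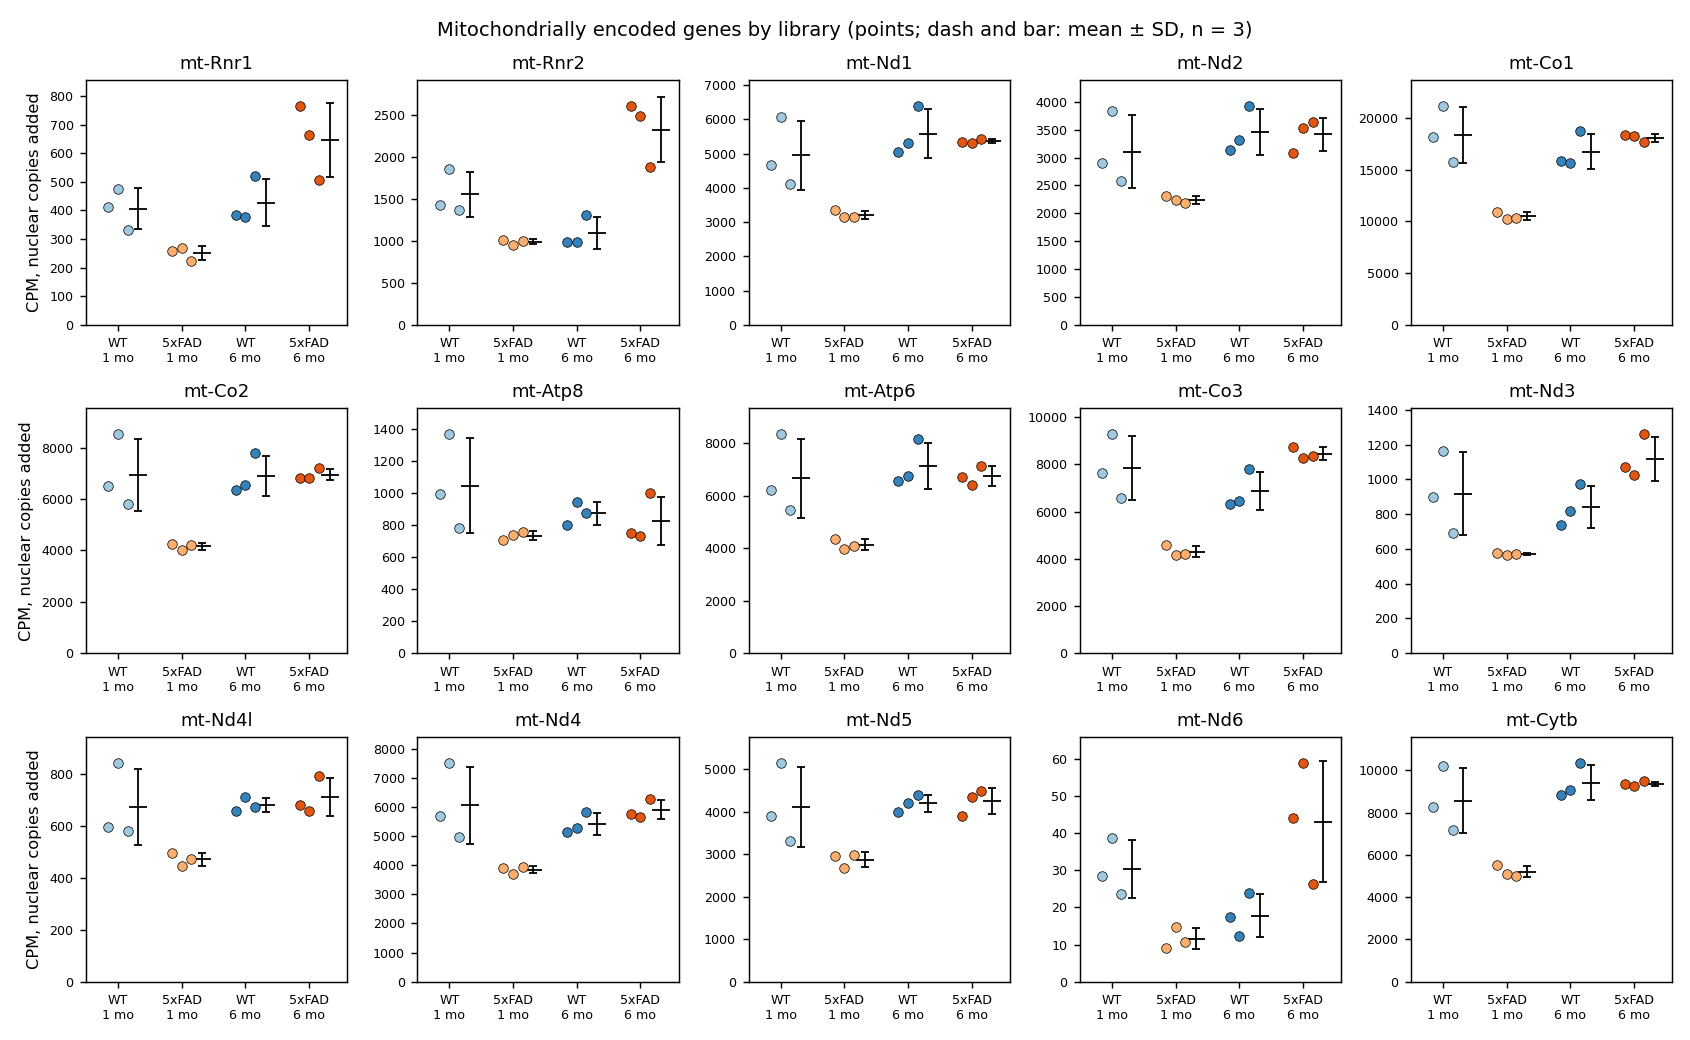
CPM of the 15 measured mitochondrial genes with copies added, 1 panel per gene, 1 point per library, with the mean and SD of each group. The 3 libraries of 5xFAD at 1 month lie below all 3 of WT at 1 month for the 13 messenger RNAs and both ribosomal RNAs. The share of all genes that lay apart in this way is not given here.

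Both ribosomal RNAs, which form the core of the mitochondrial ribosome, were called lower as well. mt-Rnr1 (chrM:70-1024), the small-subunit RNA, was at 413, 474 and 333 CPM in WT and at 258, 270.4 and 224 in 5xFAD at 1 month, a change of -0.70 ± 0.17 (adjusted p = 0.0109). mt-Rnr2 (chrM:1094-2675), the large-subunit RNA, was at 1429, 1858 and 1367 CPM in WT and at 1009, 953 and 999 in 5xFAD, a change of -0.65 ± 0.14 (adjusted p = 0.00247). Neither overlapped between groups. Their counts relative to those of the messenger RNAs were 2.84% ± 0.0902 in WT and 2.93% ± 0.0504 in 5xFAD (SD, n = 3), and the groups overlapped in it. The calls of both ribosomal RNAs, mt-Nd6 and mt-Nd2 were lost when a trend of fold change with transcript length and GC content was removed (adjusted p = 0.124 for mt-Rnr1, 0.101 for mt-Rnr2, 0.0711 for mt-Nd6 and 0.0936 for mt-Nd2).

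At 6 months the picture was different. Of the 13 messenger RNAs, 1 was called higher in 5xFAD, mt-Nd6, and none lower, where the test called 6.31% of all genes, 2.45% as higher and 3.86% as lower. Their median log2 fold change was 0.02, beside 0.00 over all genes. At an unadjusted p below 0.05 there were 3 messenger RNAs, and DESeq2 called mt-Co3 (0.31, adjusted p = 0.0296) and mt-Nd6. For 9 messenger RNAs, mt-Nd1, mt-Nd2, mt-Nd4, mt-Nd4l, mt-Nd5, mt-Co2, mt-Atp6, mt-Atp8 and mt-Cytb, the changes lay between -0.08 and 0.12, and that of mt-Co1 was 0.11. For mt-Co1 the values were 15875, 15641 and 18695.5 CPM in WT against 18326, 18228 and 17619.9 in 5xFAD, and the groups overlapped. mt-Co3 (0.30 ± 0.10, adjusted p = 0.0770) and mt-Nd3 (0.41 ± 0.15, adjusted p = 0.120) did not overlap between groups, with mt-Nd3 at 737, 816 and 974 CPM in WT and at 1069, 1024 and 1258 in 5xFAD. A p-value above the threshold does not show that the levels were alike.

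mt-Rnr2 was at 983, 986 and 1307 CPM in WT at 6 months and at 2604, 2483 and 1882 CPM in 5xFAD. The lowest 5xFAD library stood well above the highest WT library, and the change of 1.09 ± 0.14 was called (adjusted p = 0.000220), in each of the alternatives run for it as well (adjusted p at most 0.0175). mt-Rnr1 was at 383, 378 and 521 CPM in WT and at 766, 663 and 508 in 5xFAD. One library of each group overlapped the other, and the change of 0.59 ± 0.17 was not called (adjusted p = 0.0534), although 9 alternatives called it. Ribosomal RNA thus amounted to 2.15%, 2.10% and 2.41% of the mitochondrial messenger RNA counts in WT and to 4.78%, 4.48% and 3.29% in 5xFAD. The ratio of mt-Rnr2 to mt-Rnr1 counts was 2.56 ± 0.0509 in 6-month WT, against 3.62 ± 0.188 in 6-month 5xFAD, 3.83 ± 0.332 in 1-month WT and 3.97 ± 0.477 in 1-month 5xFAD. All 3 WT libraries at 6 months, at 2.51 to 2.61, lay below the other 9.

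mt-Nd6 was at 17.3, 12.2 and 23.8 CPM in WT at 6 months and at 44.1, 58.9 and 26.3 CPM in 5xFAD. The groups did not overlap, and 5xFAD replicate 3 lay just above the highest WT library. The change was 1.28 ± 0.30 (adjusted p = 0.0189). As a share of mt-Nd5 counts, mt-Nd6 stood at 0.422% ± 0.127 in WT and at 1.13%, 1.36% and 0.585% in the 5xFAD libraries. The libraries high in mt-Nd6 were also high in RNA of the cytosolic ribosome, which oligo-dT selection largely removes: its share of counts was 1.11% in 5xFAD replicate 1 at 6 months, 0.446% in replicate 2, 0.325% in WT replicate 2 at 1 month, and 0.0280% to 0.149% in the other 9. Without these 3 libraries, mt-Nd6 at 6 months was not called (0.57, adjusted p = 0.417), mt-Rnr2 was (0.78, adjusted p = 0.00219), and mt-Rnr1 was at 0.25 (adjusted p = 0.591). mt-Nd6 also lost its call without any single one of 5xFAD replicate 1 or 2 or WT replicate 1 or 2 at 6 months, with adjusted p-values of 0.0645 to 0.108. At 1 month, leaving out the same 3 libraries kept mt-Nd6 (-1.18, adjusted p = 0.00311), mt-Rnr1 (-0.58, adjusted p = 0.0120) and mt-Rnr2 (-0.51, adjusted p = 0.00169) called lower.

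**Figure D5:**
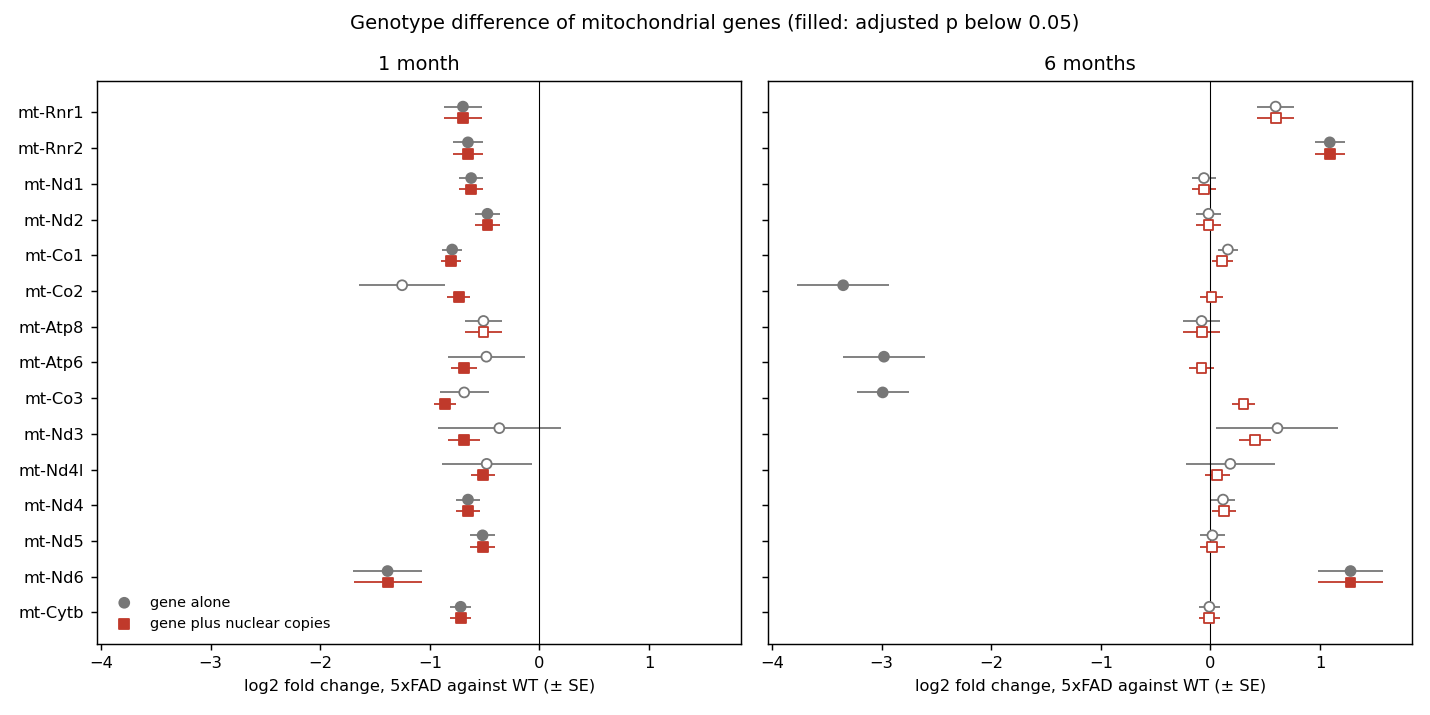
Log2 fold change of 5xFAD against WT with its SE at 1 month and at 6 months, for each mitochondrial gene alone and with copies added; filled points have an adjusted p below 0.05. With copies added, the 1 month changes lie between -0.47 and -1.39, and at 6 months mt-Nd6 (1.28) and mt-Rnr2 (1.09) stand out, whereas mt-Co2, mt-Co3 and mt-Atp6 alone lie near -3 at 6 months.

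Between 1 and 6 months, the 2 genotypes showed different courses. In WT, no messenger RNA was called in either direction with copies added, where the test called 10.4% of all genes, 5.99% as higher and 4.46% as lower. The median change of the 13 was -0.01, as over all genes, 1 messenger RNA had an unadjusted p below 0.05, and DESeq2 called 1, mt-Nd6, lower (-0.77, adjusted p = 0.0450). mt-Rnr2 was called lower with age in WT (-0.51 ± 0.14, adjusted p = 0.0229), but not without WT replicate 2 at 1 month (adjusted p = 0.135) or without WT replicate 1 (0.124) or replicate 2 (0.128) at 6 months, nor with the trend in length and GC content removed (0.106). Without the 3 libraries rich in cytosolic ribosomal RNA, 4 messenger RNAs were called higher with age in WT: mt-Nd1 (0.36), mt-Nd2 (0.34), mt-Atp6 (0.30) and mt-Cytb (0.29). Leaving out WT replicate 2 at 1 month by itself gave mt-Nd1, mt-Nd2 and mt-Cytb.

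In 5xFAD, 12 of the 13 messenger RNAs were called higher at 6 months than at 1 month, where the test called 23.3% of all genes, 10.9% as higher. Their median change was 0.74, beside 0.03 over all genes. The largest were mt-Nd6 (1.89 ± 0.31), mt-Co3 (0.97 ± 0.10) and mt-Nd3 (0.97), followed by mt-Cytb (0.85), mt-Co1 (0.78), mt-Nd1 (0.74) and mt-Co2 (0.74), and the others lay between 0.56 and 0.71 except mt-Atp8. mt-Atp8 was not called (0.17 ± 0.17, adjusted p = 0.532), at 709, 739 and 759.8 CPM at 1 month and 750, 731 and 1001 CPM at 6 months. Without the 3 libraries rich in cytosolic ribosomal RNA it was called higher (0.46, adjusted p = 0.0151), and mt-Nd6 changed by 1.20 (adjusted p = 0.0133). mt-Rnr1 (1.36) and mt-Rnr2 (1.23) were called higher. This comparison shares the 5xFAD libraries at 1 month with the genotype comparison of that age, so a low level in those 3 libraries enters both.

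The difference between the genotype effects at 6 months and at 1 month was tested as an interaction. With copies added, it was called for 12 of the 13 messenger RNAs and both ribosomal RNAs, all toward a higher value at 6 months, where the test called 25% of all genes, 11.7% as higher. The median of the 13 was 0.71, beside 0.06 over all genes. mt-Nd6 had 2.66 ± 0.43, mt-Rnr2 1.74 ± 0.19 and mt-Co3 1.16 ± 0.14, and the exception was again mt-Atp8 (0.43 ± 0.24, adjusted p = 0.228). Without the 3 libraries rich in cytosolic ribosomal RNA, mt-Nd6 had 1.74 (adjusted p = 0.00497) and mt-Atp8 was called (0.47, adjusted p = 0.0457), as it was without WT replicate 3 at 1 month (0.55, adjusted p = 0.0308). Summed over the 13 messenger RNAs, the level was 69241 ± 13027 CPM in 1-month WT, 42275 ± 1526 in 1-month 5xFAD, 68112 ± 6722 in 6-month WT and 71177 ± 1311 in 6-month 5xFAD. The low group was 5xFAD at 1 month, and the spread was wide in WT and narrow in 5xFAD at both ages.

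The proportions among the abundant messenger RNAs varied less than their sum. mt-Co1 made up 24.1% to 27.3% of their counts over the 12 libraries and mt-Cytb 11.98% to 13.9%. mt-Cytb had a larger part in both 6 month groups (13.8% ± 0.163 in WT and 13.1% ± 0.0927 in 5xFAD) than at 1 month (12.4% ± 0.119 and 12.3% ± 0.284), without overlap between ages. mt-Co3 made up 11.3% ± 0.209 in 1-month WT and 11.9% ± 0.477 in 6-month 5xFAD, against 10.2% ± 0.203 in 1-month 5xFAD and 10.1% ± 0.189 in 6-month WT. mt-Atp8 had its largest part in 5xFAD at 1 month, at 1.74% ± 0.113, where the summed level was lowest. These parts are given as descriptions of the libraries.

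The 22 transfer RNA genes, 59 to 75 bases long, were close to absent from these libraries. Of them, 21 were at 0 in all 12 libraries, and mt-Tl1, which encodes a leucine transfer RNA, had 1 count in WT replicate 1 at 1 month. Over 157683429 counts in all, this is the single count of the class. A count of 0 allows up to 3 counts, or 0.153 to 0.275 CPM depending on the library. Transfer RNAs carry no poly(A) tail and are shorter than the fragments of such libraries, so their level in the retina was not measured here, and no comparison between groups was possible. All 22 stayed outside the filter on low counts, and the 15 genes that passed it were all of the messenger and ribosomal RNAs.

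The partners of these genes in the same complexes are encoded in the nucleus, and a list of 73 nuclear subunits of complexes I, III, IV and V was set beside them. At 1 month, 59 of the 73 were called lower in 5xFAD and none higher, with a median of -0.56, where the table of genes alone called 19.6% of all genes and 8.91% as lower. By complex these were 27 of 36 in complex I, 9 of 9 in complex III, 11 of 11 in complex IV and 12 of 17 in complex V. Ndufa4, a small subunit now assigned to complex IV, went from 243 to 152 CPM (-0.68 ± 0.09, adjusted p = 2.98e-05), and Atp5g3, which encodes the c-ring subunit of ATP synthase, from 205 to 124 CPM (-0.72 ± 0.10, adjusted p = 2.66e-05). Cox7a2 (-0.84 ± 0.12) and Cox4i1 (-0.67 ± 0.10), both nuclear subunits of complex IV, and Uqcr10 (-0.76 ± 0.13), a small subunit of complex III, were lower too. Complex II, which contains no mitochondrially encoded subunit, had 3 of its 4 genes called lower.

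At 6 months, 14 of the 73 were called higher in 5xFAD and 1 lower, with a median of 0.27, beside 2.48% of all genes called higher and 3.89% lower. Atp5mpl, a small accessory subunit of ATP synthase (0.89 ± 0.13, adjusted p = 0.000352), Ndufa4 (0.60 ± 0.09, adjusted p = 0.000441) and Cox5a, a subunit of complex IV (0.69 ± 0.14, adjusted p = 0.00395), were higher. The one lower was Atp5g2 (-1.37 ± 0.22), from 64.0 CPM in WT to 24.7 in 5xFAD. The mitochondrial messenger RNAs of the same complexes had a median of 0.02 in this comparison. With age, 18 of the 73 were called lower and 1, Atp5g2 (1.63), higher in WT (10.5% of all genes called), and 58 were called higher and none lower in 5xFAD (23.2% of all genes called). Ndufa4, at 152 CPM in 5xFAD at 1 month, was at 143 CPM in WT at 6 months, and Atp5g3 was at 124 and 123 CPM in these groups. Whether the nuclear and mitochondrial sets differ was not tested.

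Of 65 nuclear genes whose products act on mitochondrial DNA or RNA, 5 were called lower in 5xFAD at 1 month and none higher, with a median of -0.23. That share is near the 8.91% of all genes called lower, and the genes are named as a description. They were Slirp (-0.67 ± 0.18, adjusted p = 0.00895), whose product binds and stabilises mitochondrial messenger RNAs, Pnpt1 (-0.44), a mitochondrial RNA-degrading enzyme, Fastk (-0.39), which in mitochondria is known to be needed for mt-Nd6 RNA, Ssbp1 (-0.42), the single-stranded DNA binding protein of mitochondrial DNA, and Pus1 (-0.86), a pseudouridine synthase. Polrmt, the mitochondrial RNA polymerase, was at -0.29 ± 0.15 (adjusted p = 0.172), and Tfam, which packages mitochondrial DNA and starts its transcription, at -0.41 ± 0.16 (adjusted p = 0.0700), neither called. Lrpprc, the partner of Slirp, was at 98.1 CPM in WT and 98.7 in 5xFAD (0.01 ± 0.09). At 6 months 2 of the 65 were called higher, a share near the 2.48% of all genes, Elac2 (0.58 ± 0.16, adjusted p = 0.0260), which cuts the 3′ ends of transfer RNAs from precursors, and Trit1 (0.87 ± 0.23, adjusted p = 0.0238), a transfer RNA modifying enzyme. With age, 1 of the 65, Trit1, was called lower in WT, beside 4.49% of all genes. In 5xFAD 8 were called higher and 1, Trub2 (-0.50), lower, beside 10.8% and 12.4% of all genes. Polrmt, Tfam and Lrpprc were called in none of these comparisons.

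Of 13 nuclear regulators of mitochondrial genes, 2 were called higher in 5xFAD at 1 month, beside 10.7% of all genes, and none lower. Esrrg, an orphan nuclear receptor, rose from 65.4 to 127 CPM (0.96 ± 0.13, adjusted p = 3.31e-05), and Ppara, a receptor that controls fatty acid oxidation, from 8.09 to 18.8 CPM (1.22 ± 0.27, adjusted p = 0.00216). At 6 months Esrrg was called lower in 5xFAD (-0.49 ± 0.13, adjusted p = 0.0297), from 100.3 to 71.6 CPM, as was Ppargc1b, a transcriptional coactivator (-0.47 ± 0.14), and Esrrb, a relative of Esrrg, was higher (0.38 ± 0.11), beside 3.89% of all genes called lower and 2.48% higher. Esrrg was highest in 5xFAD at 1 month, the group in which the mitochondrial messenger RNAs were lowest. A relation between the 2 was not tested, and 11 of the 13 regulators were not called at 1 month. With age in WT, Esrrg (0.62) and Pprc1 (0.65), a coactivator, were called higher and Esrrb (-0.37), Esrra (-0.56) and Sirt3 (-0.51), the last a mitochondrial deacetylase, lower, beside 6.01% and 4.49% of all genes. In 5xFAD, Esrrg (-0.83), Ppara (-1.31) and Ppargc1b (-0.48) were called lower with age, beside 12.4% of all genes.

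The labelled tissue was borne out by its markers: all 12 rod photoreceptor markers were detected in every library, with summed levels of 59143 to 61869 CPM in 1-month WT, 63033 to 66848 in 1-month 5xFAD, 53914 to 58525 in 6-month WT and 64070 to 67379 in 6-month 5xFAD. The sum of rod markers was therefore not low in the group in which mitochondrial RNA was low. Of the 12 rod markers, 2 were called lower and 2 higher in 5xFAD at 1 month, beside 8.91% and 10.7% of all genes. Cone photoreceptor markers, all 9 detected in every library, summed to 1439 to 1672 CPM in WT and 1132 to 1319 CPM in 5xFAD at 1 month. Of these 9, 3 were called lower and none higher, beside the same shares of all genes. The 8 microglia markers summed to 50.7 to 59.4 against 39.4 to 47.7 CPM, with none called. Neither sum overlapped between the genotypes at 1 month. At 6 months the cone sum was 1209.8 to 1315 CPM in WT and 1532 to 1691 in 5xFAD, and the microglia sum was 50.4 to 58.9 and 53.2 to 67.9. At that age 3 cone and 4 rod markers were called higher in 5xFAD and none lower, beside 2.48% and 3.89% of all genes. Markers listed for the retinal pigment epithelium, a layer next to the retina, had their lowest sum in 5xFAD at 1 month. It was 492 to 577 CPM in 1-month WT and 300.2 to 341 in 1-month 5xFAD. At 6 months it was 395 to 469 in WT and 431 to 503 in 5xFAD. The gene with the highest level in this list was Rlbp1, at a mean of 362 CPM over the 12 libraries. Rlbp1 is also one of the Muller glia markers, so the sum does not measure pigment epithelium alone. The Muller glia sum at 1 month was 3457 to 3754 CPM in WT and 3243 to 3640 in 5xFAD, with overlap. Of the 13 pigment epithelium markers, 8 were detected in all libraries, and 6 of the 10 tested were called lower in 5xFAD at 1 month, beside 8.91% of all genes. Of 11 lens markers, none was detected in all libraries and 1 was at 0 in every library; their sum was 6.76 to 75.7 CPM in 5xFAD at 1 month and at most 3.19 CPM elsewhere, and blood markers were at 65.7 to 158 CPM in both groups at 1 month and at most 28.7 CPM at 6 months. The mean annotated length of the transcripts behind a count, over all other genes, was 5051 ± 12.2 bases in 1-month 5xFAD against 4608 ± 104 in 1-month WT, 4820 ± 190 in 6-month WT and 4561 ± 65.8 in 6-month 5xFAD. The part of these differences in the mitochondrial levels was not tested, apart from the removal of the trend with length and GC content. After it, 10 of the 12 messenger RNAs called lower in 5xFAD at 1 month were still called, mt-Nd2 (adjusted p = 0.0936) and mt-Nd6 were not, and mt-Atp8 was called in addition.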

How the data were processed

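The authors deposited a table of expected counts per gene for the 12 libraries. Per the submitters' processing notes, RSEM 1.3.3, STAR 2.7.1a, Trim Galore 0.6.6 and DESeq2 1.32.0 were among the tools, and GRCm38.p6 was the build. The settings for reads that match several places and for strand are not given in the sources used here. Gene IDs were matched to GENCODE M21 (55227 of 55487 matched), whose coordinates and transcripts, on GRCm38, are printed here. Expected counts were rounded to whole numbers.

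One edgeR 4.0.16 fit (R 4.3.3, limma 3.58.1) over all 12 libraries used TMM scaling, filterByExpr by group and robust quasi-likelihood tests with 8 residual degrees of freedom. Benjamini-Hochberg adjustment ran over the 16233 genes tested, and genes were called below 0.05. The SE is the fold change divided by the square root of F. CPM use TMM-scaled library sizes, and shares use the plain library totals. Nuclear copies were found with BLAST+ 2.17.0 at 90% identity or more over at least 100 bases. They were aligned to the 37 mitochondrial gene transcripts, because no mitochondrial genome sequence was used here, and another table held each gene's counts plus those of its copies (16224 tested). No 2 libraries of the same group agreed within sampling noise. Over the 18 pairs of libraries with the same replicate number, correlations of their deviations from the group means were -0.0852 to 0.0623, so the numbers were not taken as pairs. The fits were tested on simulated data with known changes. Tables were made with Python 3.11.15, pandas 2.3.3, numpy 2.4.6 and scipy 1.17.1, and figures with matplotlib 3.10.9.

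All protein-coding and ribosomal RNA genes are named, transfer RNA genes by counts, copies above 10 CPM by name, and of each list up to 4 genes with the smallest p per comparison, plus Polrmt, Tfam and Lrpprc. The members and lists were chosen with earlier results of these data known. Alternatives were DESeq2 1.42.0 as size factors and as a test, library size alone, scaling without mitochondrial, copy and ribosomal RNA genes, 2 other filters on low counts, a replicate block, removal of a trend with length and GC content, the compared groups only, copies at 99% identity only, and each library left out. Leaving out the 3 libraries richest in cytosolic ribosomal RNA was chosen after seeing the data.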

Additional observations from a re-analysis of the deposited data

Results flagged for a closer look

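For 14 of the 15 mitochondrial genes measured, the genotype effect differed between the ages by a test of that difference itself (edgeR interaction of genotype and age, copies added). The same test called 25% of all genes, 11.7% as higher. Fewer of the messenger RNAs were called with the trend in length and GC content removed, as given in the next section. The values are the log2 fold change of 5xFAD against WT at 6 months minus that at 1 month, with its SE. Both ribosomal RNAs are among them, with 1.74 ± 0.19 for mt-Rnr2 (adjusted p = 6.15e-06) and 1.29 ± 0.24 for mt-Rnr1 (adjusted p = 0.00148). Of the messenger RNAs, mt-Nd6 had 2.66 ± 0.43 (adjusted p = 0.000344; 1.74 without the 3 libraries rich in cytosolic ribosomal RNA), mt-Co3 had 1.16 ± 0.14 (adjusted p = 3.98e-06) and mt-Nd3 had 1.09 ± 0.21 (adjusted p = 0.00132). The difference was 0.91 for mt-Co1, 0.78 for mt-Nd4, 0.75 for mt-Co2, 0.71 for mt-Cytb, 0.61 for mt-Atp6, 0.58 for mt-Nd4l, 0.56 for mt-Nd1, 0.54 for mt-Nd5 and 0.46 for mt-Nd2, with adjusted p-values between 2.18e-05 and 0.0424. All 14 have the same sign, and in each the low level of 5xFAD at 1 month enters the value.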

How the results depend on the processing

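No log2 fold change called in either of the fits compared had another sign under an alternative. Of all values compared, called or not, 53 of 1710 with copies added changed sign, and 34 of 1635 alone. Those with copies added were at most 0.26 in size as reported. The largest alone was the interaction of mt-Nd3 (0.98, and -0.69 without the 3 libraries rich in ribosomal RNA). Counts are of mitochondrial messenger RNAs called, copies added unless "alone" is said. At 6 months, the count in the genotype comparison went from 1 to 2 with DESeq2, 3 with a filter of 1 count and 0 after removing the trend with length and GC, and alone from 4 to 2 without the 3 libraries rich in ribosomal RNA. With age in WT it went from 0 to 1 with DESeq2, with the filter of 1 count, with the trend removed or with the compared groups only, and to 4 without those 3 libraries (alone from 3 to 6). The interaction went from 12 to 7 with the trend removed. Leaving out 1 library gave 11 to 13 at 1 month, 0 to 3 at 6 months, 12 in 5xFAD with age, 0 to 3 in WT with age and 8 to 13 for the interaction, the lowest without WT replicate 2 at 1 month. Alone, the ranges were 6 to 9, 3 to 4, 8 to 9, 3 to 5 and 8 to 10. The difference in mitochondrial share ranged over -3.38 to -2.20 points at 1 month and 0.114 to 0.729 at 6 months, and alone over -2.29 to -1.48 and -1.17 to -0.658. With the replicate block the counts were 12, 1, 0, 12 and 11 in the same order, and alone 7, 4, 3, 8 and 8. Depth limits mt-Nd6, at 9.20 to 58.9 CPM, and the transfer RNAs.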
